A study of Mus musculus with 8 samples.

Results

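Cwc22 and Gm13727, 2 of the 32285 genes in the count matrices, are described here across the nuclei, mice and cell clusters of the striatum. They were chosen because earlier results of these data had shown both to be far higher in WSB/EiJ mice than in 7 other inbred strains. The values of that contrast are therefore given as a description, with no test. Nuclei came from the frozen striatum of 32 mice, 12 weeks of age, and RNA and open chromatin were read from each nucleus by the Multiome assay of 10x Genomics. The strains were A/J, C57BL/6, 129S1/SvImJ, NOD/ShiLtJ, NZO/HlLtJ, CAST/EiJ, PWK/PhJ and WSB/EiJ, with 4 mice of each, no treatment, and both sexes balanced within a batch. Each of 4 batches pooled nuclei of 1 mouse per strain before loading, so that a mouse is identified by its strain, which the authors called from sequence variants in the reads, and by its batch. The sex of a given mouse was not used. The series' design text and the authors' barcode table name different substrains for C57BL/6 (C57BL/6J and C57BL/6NJ), so the substrain is not given here.

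Cwc22 is a spliceosome protein with a MIF4G domain, a fold shared with translation initiation factors. It brings the RNA helicase Eif4a3 to the spliceosome, where Eif4a3, Magoh and Rbm8a form the core of the exon junction complex, the mark left on mRNA after splicing that nonsense-mediated decay later reads. Cwc22 lies in the segment of chromosome 2 known as R2d, whose number of copies is known to vary among mice and to be high in WSB/EiJ. The files hold a single row for the gene, so reads from near-identical copies cannot be told apart in it, and the number of copies was not measured here. Gm13727 is a gene model with a systematic symbol, for which no role is stated here. It has no entry in the reference tables used here, so its position relative to Cwc22 was not analysed here.

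In the reference genome (GRCm38.p6, RefSeq), which is that of C57BL/6J and not of WSB/EiJ, Cwc22 spans chr2:77881159-77946356 on the minus strand, a length of 65198 bp. Its promoter window, chr2:77946307-77946606 on the minus strand, is shown because 1 accessible region of the deposited list lies over the start site. Capitals mark matches of the motif ACTACA on either strand.
Cwc22: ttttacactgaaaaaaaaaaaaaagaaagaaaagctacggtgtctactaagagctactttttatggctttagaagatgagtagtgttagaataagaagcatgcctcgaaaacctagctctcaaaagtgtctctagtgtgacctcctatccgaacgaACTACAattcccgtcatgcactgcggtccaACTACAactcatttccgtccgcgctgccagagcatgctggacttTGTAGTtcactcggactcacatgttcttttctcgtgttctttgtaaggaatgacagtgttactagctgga
The window of 300 bases held 3 matches of ACTACA, at -94 and -64 on the gene's strand and at -20 on the other strand, counted from the start site. Of 32851 RefSeq promoter windows of the same length, 10.3% held at least 1 such match on either strand and 0.116% held 3 or more, 38 windows in all. The limit of 3 equals the number found in this window and was used for ACTACA only, so that share is no test. Of the other motifs searched on both strands, none was in this window: CCAAT (in 37.4% of all windows), TATAAA (in 13.6%), CACGTG (in 7.15%), GGGCGG (in 35.7%) and TGACGTCA (in 1.79%). A match describes the letters only.

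The authors kept 55672 annotated nuclei in 18 clusters, 6835 from WSB/EiJ mice with a median of 4322 counts per nucleus and 48837 from the other strains with a median of 4330. A mouse gave 944 to 4416 nuclei and 3785535 to 23245935 counts. Counts are unique molecular identifiers (UMIs), 1 per captured RNA molecule. The cluster names of the 5 clusters used for tests were checked with 4 markers each, and 20 of the 20 markers were highest in their own cluster among the 5. Of 54141 barcode sequences among the kept nuclei, 1517 occurred in 2 or more batches. Because nuclei of all strains shared a pool, free RNA of WSB/EiJ nuclei could reach droplets of other strains, and its part in the counts of those strains was not tested.

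Cwc22 was counted 48022 times in WSB/EiJ nuclei and 9949 times in the more numerous nuclei of the other 7 strains together. In Drd1+ neurons, the projection neurons of the direct striatal pathway, Cwc22 stood at 1647, 1657, 1449 and 1501 CPM (counts per 1e+06 of the TMM-scaled library total) in the WSB/EiJ mice of batches 1 to 4. In the 28 other mice, Cwc22 ranged from 26.5 to 67.7 CPM with a median of 44.0. The groups did not overlap, and the lowest WSB/EiJ mouse was 21.4 times the highest other mouse. The means were 1564 ± 104 CPM (SD, n = 4) and 45.4 ± 10.5 CPM (SD, n = 28). Set against the mean of the 7 other mice of its own batch, WSB/EiJ was higher in each of the 4 batches, by 34.5 ± 1.37-fold (SD, n = 4 batches; 32.7 to 36.0). Of all genes tested in Drd1+ neurons, 17.0% were called in the contrast of WSB/EiJ with the other strains by edgeR at an adjusted p under 0.05. Since the members were chosen on this contrast, nothing is read from that share for them.

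Drd2+ neurons, the projection neurons of the indirect pathway, held Cwc22 at 1549, 1656, 1419 and 1461 CPM in the 4 WSB/EiJ mice. The 28 others ranged from 23.5 to 64.7 CPM with a median of 46.6, again with no overlap, and the batch-wise fold was 33.5 ± 0.932 (SD, n = 4 batches). In this cluster 15.3% of all genes tested were called in the same contrast. In oligodendrocytes, the myelinating glia, Cwc22 was at 1395, 1372, 1315 and 1351 CPM in WSB/EiJ and at 17.7 to 55.8 CPM elsewhere, with a median of 35.7. The fold was 37.8 ± 6.21 (SD, n = 4 batches), and 10.1% of all genes tested were called. Cwc22 had 647 counts over the 28 other mice there, against 4234 in Drd1+ neurons.

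Astrocytes of WSB/EiJ mice held Cwc22 at 1706, 1719, 1548 and 1593 CPM, against 10.6 to 71.0 CPM elsewhere (median 40.03), a fold of 38.8 ± 4.45 (SD, n = 4 batches) in a cluster where 3.28% of genes tested were called. Macrophages, immune cells of the tissue, had Cwc22 at 1960, 2015, 1963 and 2197 CPM in WSB/EiJ. The other 28 mice there ranged from 0 to 109 CPM with a median of 31.6, on 119 counts in all. The groups were separate in both clusters. The macrophage fold of 50.2 ± 4.52 (SD, n = 4 batches) was the largest of the 5 folds, and 6.19% of genes tested were called there. CPM levels are not set against each other between these clusters, since 3858 genes made up the total in macrophages and 13431 in Drd1+ neurons. By plain totals, Cwc22 in WSB/EiJ was at 1637 CPM in macrophages and 1615 CPM in Drd1+ neurons.

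**Figure D1:**
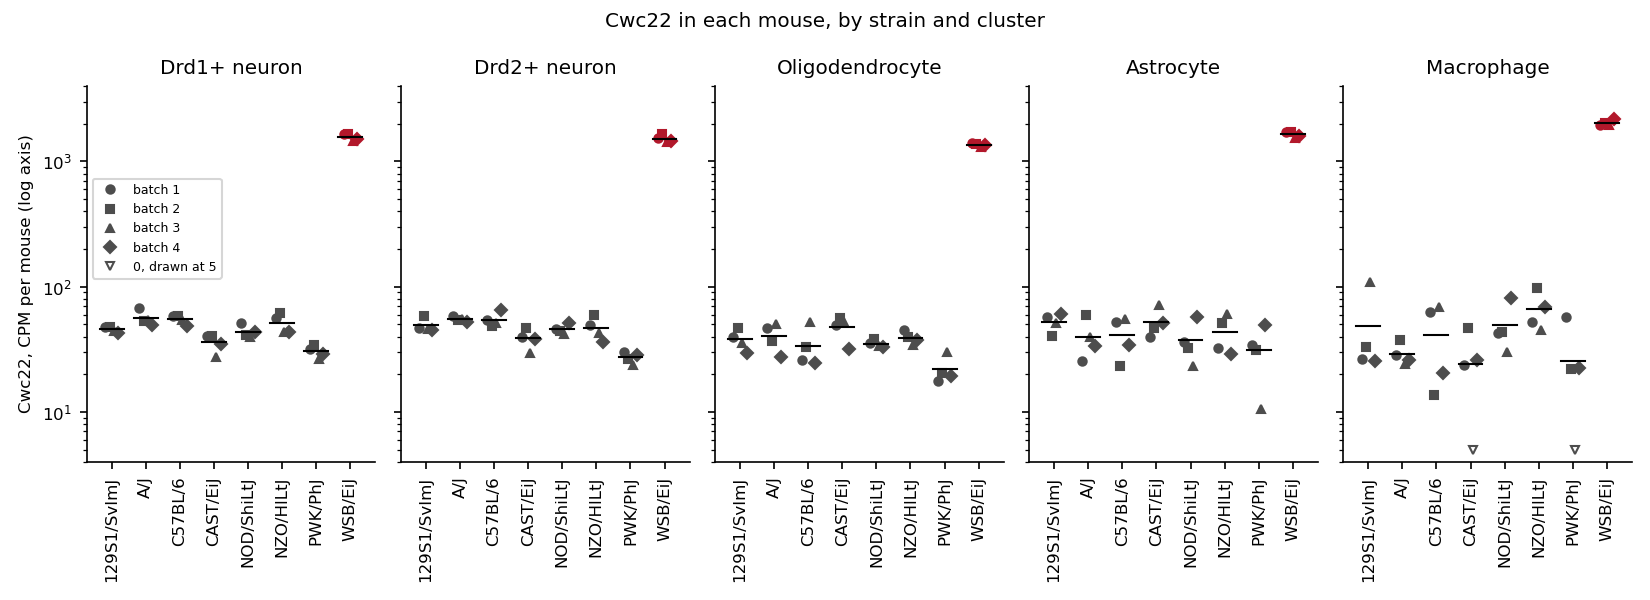
Cwc22 in CPM (log axis) in each of 32 mice, by strain, in 5 clusters; marker shapes stand for batches, bars for the mean of 4 mice, and open triangles for a level of 0, drawn at 5. In Drd1+ neurons the 4 WSB/EiJ mice sit between 1449 and 1657 CPM and the 28 other mice between 26.5 and 67.7 CPM.

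The elevation was present in every annotated cluster, down to the smallest. With nuclei summed over mice and divided by the plain total, Cwc22 in WSB/EiJ was above every other strain with nuclei in 18 of 18 clusters. All 7 other strains had nuclei in 17 of them, and 6 had nuclei in the cluster Unknown_2. The ratio of WSB/EiJ to the other strains had a median of 38.9 over clusters. The lowest ratios were in vascular and lining cells, at 22.0 in mural cells (95% interval 16.4 to 29.8), 25.0 in endothelium (21.2 to 29.7) and 28.9 in ependyma (20.7 to 40.9). The highest was 53.2 in Chat+ interneurons (35.1 to 83.2), the cholinergic cells, from 9 WSB/EiJ nuclei. These exact intervals cover counting error only, and the spread between mice is not in them.

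Differences in the ratio came from both sides of it. In mural cells, Cwc22 stood at 1227 CPM in WSB/EiJ and at 55.7 CPM elsewhere, and in endothelium at 1261 and 50.4 CPM. Excitatory Slc17a7+ neurons had 1454 and 31.2 CPM, with the lowest level of the 18 clusters outside WSB/EiJ. The cluster Unknown_2, with 2 WSB/EiJ nuclei and 20 Cwc22 counts, had 2771 CPM (1693 to 4279) against 66.6 CPM. Fibroblasts gave 33 counts from 10 WSB/EiJ nuclei and 11 counts from 122 others, a ratio of 32.3 (15.9 to 70.9).

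**Figure D2:**
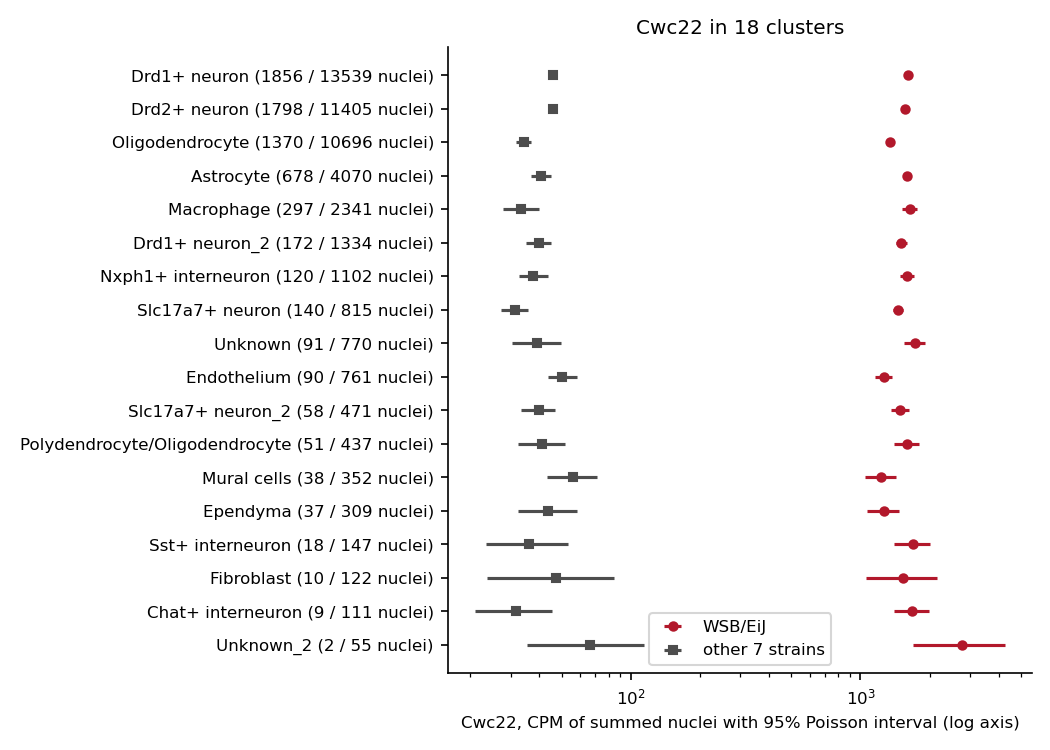
Cwc22 in CPM (log axis) in 18 clusters, for the summed nuclei of WSB/EiJ (circles) and of the other 7 strains (squares), with exact 95% Poisson intervals; the numbers of nuclei are beside each name. WSB/EiJ lies above the other strains in 18 of 18 clusters, by 22.0-fold in mural cells to 53.2-fold in Chat+ interneurons.

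Whether the WSB/EiJ ratio of Cwc22 differed between clusters was tested as an interaction, which the choice of the genes did not use, in edgeR's quasi-likelihood test over 13757 genes with the mouse as a block. Against Drd1+ neurons, the ratio in Drd2+ neurons was 0.980 times as large (95% interval 0.868 to 1.11; edgeR adjusted p = 1). The sign of this difference turned without batch 4 and with thinned libraries. In oligodendrocytes it was 1.15 times as large (0.997 to 1.34; edgeR adjusted p = 0.395) and in astrocytes 1.12 times (0.954 to 1.32; edgeR adjusted p = 0.696). In macrophages it was 1.43 times as large (1.13 to 1.80), with an unadjusted edgeR p of 0.00352 and an adjusted p of 0.160.

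None of the 4 interaction contrasts thus passed for Cwc22, and none passed under the alternatives that were run. The smallest adjusted p in edgeR was 0.107, for macrophages. Over all genes, 0.153% were called in Drd2+ neurons, 4.15% in oligodendrocytes, 2.02% in astrocytes and 1.28% in macrophages. A missed threshold does not show equal ratios, and the intervals above give the range that the data allow.

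Counted by nucleus, Cwc22 was also higher in WSB/EiJ, but unlike the mice the nuclei of both groups overlapped. A Cwc22 UMI was found in 94.1% of WSB/EiJ nuclei and in 16.6% of the others. WSB/EiJ nuclei had a median of 6 Cwc22 UMIs and a maximum of 47. In the other strains 40744 nuclei had 0, 6615 had 1 and 17 had more than 4, with a maximum of 9. Above that maximum lay 1953 WSB/EiJ nuclei, 28.6% of them.

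Drd1+ neurons, with a median of 6270 counts per nucleus in WSB/EiJ and 6554 elsewhere, had a Cwc22 UMI in 99.6% and 24.9% of nuclei. By mouse, the share in WSB/EiJ was 98.4% to 100% and in the 28 other mice 12.5% to 34.4%. Only 75 WSB/EiJ nuclei, 4.04%, had 2 or fewer Cwc22 UMIs, while 130 nuclei of the other strains, 0.960%, had more than 2. After each nucleus was thinned to 1000 UMIs, which left out 3 and 7 shallower nuclei, the shares were 79.4% and 4.44%. The thinned shares in oligodendrocytes were 70.7% and 3.22%, in astrocytes 77.8% and 3.57%, and in macrophages 76.0% and 3.33%. The unthinned shares there were 81.1% and 5.57%, 93.2% and 8.38%, and 84.8% and 4.78%. Oligodendrocytes had the lowest WSB/EiJ share of these 4 clusters before and after thinning, and their WSB/EiJ nuclei had a median of 1587 counts. No cell type here is known to lack Cwc22, so a share of background could not be set beside these.

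**Figure D3:**
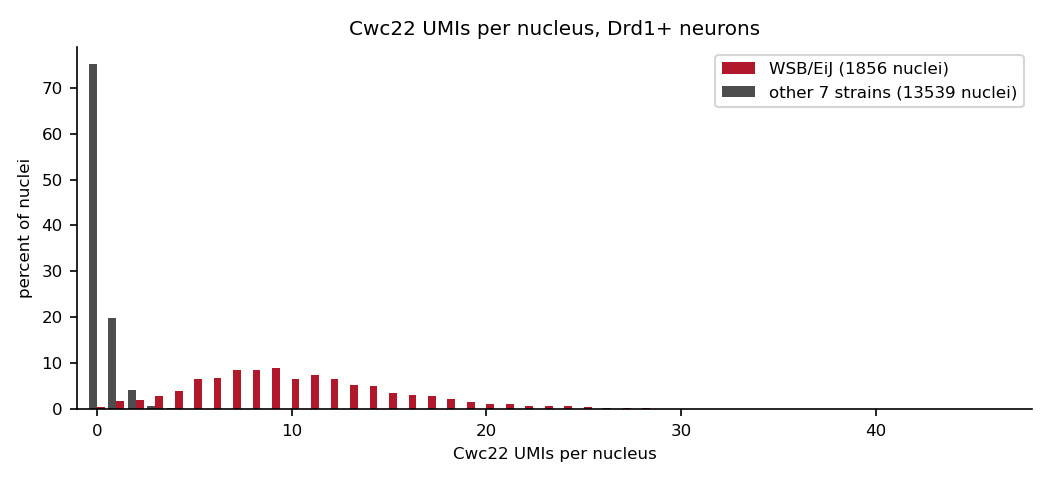
Percent of Drd1+ neuron nuclei by number of Cwc22 UMIs, for WSB/EiJ (1856 nuclei) and the other 7 strains (13539 nuclei). Most nuclei of the other strains have 0, while 4.04% of WSB/EiJ nuclei have 2 or fewer.

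WSB/EiJ nuclei without a Cwc22 UMI were few and shallow. Of the 405 such nuclei, 259 were oligodendrocytes, and 7 were Drd1+ and 7 Drd2+ neurons. Their median total was 1309 counts, against 4322 for all WSB/EiJ nuclei and 1587 for all WSB/EiJ oligodendrocytes. The contrast with all nuclei thus mixes clusters of unlike depth, and depth was not compared within a cluster. In Drd1+ neurons the variance of Cwc22 between nuclei of 1 WSB/EiJ mouse was on average 1.20 times that from counting alone (1.06 to 1.28, n = 4 mice). In the other strains the same ratio averaged 1.05 to 1.18. For an equal relative spread between nuclei, this ratio grows with the mean count. The median was 9.5 Cwc22 UMIs per nucleus in WSB/EiJ and 0 in the others, so the ratios do not compare their relative spread.

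Gm13727 was much rarer than Cwc22 and nearly limited to WSB/EiJ, with 630 counts there and 10 in the other 7 strains. In Drd1+ neurons it stood at 25.1, 23.9, 8.38 and 19.1 CPM in the WSB/EiJ mice of batches 1 to 4, on 107, 76, 15 and 55 counts. The mice of batches 1, 2 and 4 lay close together and the mouse of batch 3 was lowest. In the 28 other mice Gm13727 reached at most 0.336 CPM, and 4 counts were found in all. The mean in WSB/EiJ was 19.1 ± 7.60 CPM (SD, n = 4), and the ratio of summed counts was 490 (95% counting interval 189 to 1811).

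In Drd2+ neurons Gm13727 was at 27.4, 20.7, 12.1 and 18.2 CPM in WSB/EiJ, where batch 3 was again lowest, and 5 counts were found elsewhere. Oligodendrocytes held 7.46, 19.99, 12.8 and 14.98 CPM of Gm13727 in WSB/EiJ, on 5, 11, 6 and 9 counts, and 0 counts in the other strains. The level of the summed WSB/EiJ oligodendrocytes was 84.2 times a floor of 3 counts over that group. The counting error of the WSB/EiJ level is not in this value, so it is not a lower bound. Astrocytes gave 12.6, 14.5, 0 and 21.5 CPM in WSB/EiJ and 0 counts elsewhere, and their summed WSB/EiJ level was 43.8 times the floor of 3 counts, with the same limit. Macrophages gave 3 counts of Gm13727 in WSB/EiJ and 1 elsewhere, a ratio of 25.2 whose counting interval ran from 2.02 to 1323.

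Over all 18 clusters Gm13727 was detected in 17 in WSB/EiJ and in 3 in the other strains. In the clusters with more than 3 WSB/EiJ counts, its level ran from 13.4 CPM (9.07 to 19.0) in oligodendrocytes to 30.4 CPM (14.6 to 55.9) in the cluster Slc17a7+ neuron_2. Endothelium stood at 28.2 CPM (15.02 to 48.3). The intervals of these 9 clusters overlapped one another, but that of oligodendrocytes, up to 18.95 CPM, barely reached that of Drd2+ neurons, from 18.87 CPM. Such overlap does not show equal levels. The cluster differences for Gm13727 were not tested, since the counts are few.

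**Figure D4:**
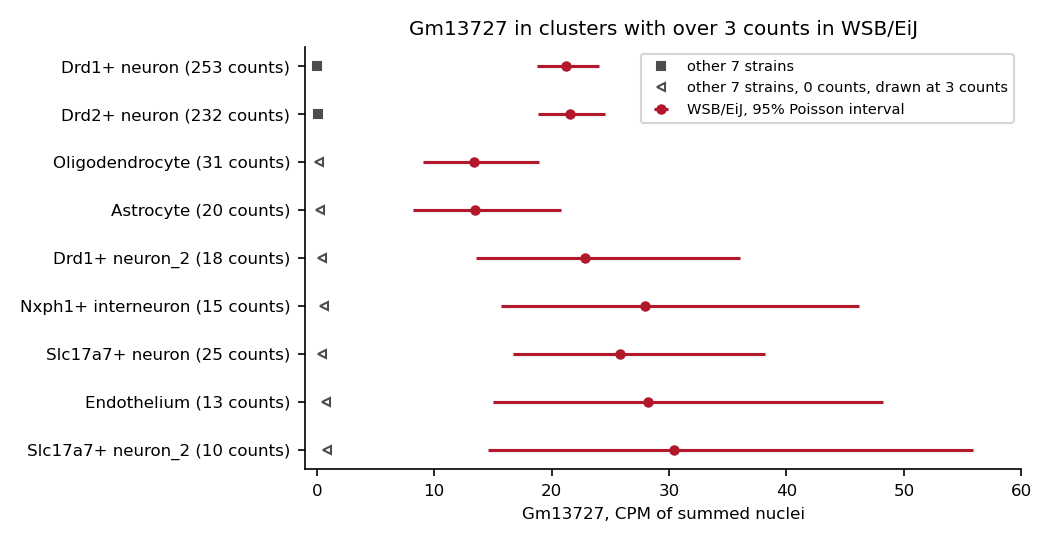
Gm13727 in CPM in the 9 clusters with over 3 WSB/EiJ counts, for summed WSB/EiJ nuclei (circles, exact 95% Poisson interval) and for the other 7 strains (squares; open triangles mark 0 counts, drawn at the floor of 3 counts). WSB/EiJ runs from 13.4 CPM in oligodendrocytes to 30.4 CPM in Slc17a7+ neuron_2.

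A Gm13727 UMI was found in 8.32% of WSB/EiJ nuclei, with at most 3 per nucleus, and in 0.0205% of the others. In Drd1+ neurons the shares were 12.1% and 0.0295%, and in oligodendrocytes 2.19% and 0 of 10696 nuclei, which allows a share of up to 0.0280% by the limit of 3 counts. The 10 nuclei of other strains that carried a Gm13727 UMI belonged to 5 strains. Of these, 9 were Drd1+ or Drd2+ neurons. They held 0 to 2 Cwc22 UMIs each and had a median total of 7044 counts, above the medians of 6554 and 5980 in the other strains' Drd1+ and Drd2+ neurons.

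The ratio of both genes uses the same counts that chose them, so it is given as a description, with intervals that cover counting error only and not the spread between mice. Per 100 Cwc22 counts, WSB/EiJ nuclei had 1.31 Gm13727 counts (exact 95% interval 1.21 to 1.42), and the others had 0.101 (0.0482 to 0.185). These rest on 10 Gm13727 and 9949 Cwc22 counts in the other strains. By batch, the ratio in WSB/EiJ was 1.53, 1.32, 0.802 and 1.30, lowest in batch 3, and in the others 0.0341, 0.0973, 0.118 and 0.179. By cluster, WSB/EiJ had 1.32 Gm13727 counts per 100 of Cwc22 in Drd1+ neurons (1.16 to 1.49), 1.37 in Drd2+ neurons (1.20 to 1.56), 0.993 in oligodendrocytes (0.674 to 1.41) and 2.24 in endothelium (1.18 to 3.86). The other strains had 0.0945 in Drd1+ neurons (0.0257 to 0.242), 0.154 in Drd2+ neurons (0.0501 to 0.361) and 0 in oligodendrocytes (up to 0.572). In astrocytes (0.849 in WSB/EiJ, 0.518 to 1.31, and 0 elsewhere, up to 0.938) and in endothelium (0 elsewhere, up to 1.97) the counting intervals overlapped. In macrophages the order was the other way, 0.432 (0.0888 to 1.27) in WSB/EiJ and 0.840 (0.0211 to 4.77) elsewhere, on 3 counts and 1 count of Gm13727.

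Below the WSB/EiJ level, Cwc22 also differed among the other 7 strains in the neurons, in a comparison that the choice of the genes did not use. In Drd1+ neurons the order rose from PWK/PhJ at 30.5 ± 3.35 CPM through CAST/EiJ at 35.9 ± 6.10, NOD/ShiLtJ at 43.9 ± 5.39, 129S1/SvImJ at 45.7 ± 2.45, NZO/HlLtJ at 51.1 ± 8.87 and C57BL/6 at 54.9 ± 4.68 to A/J at 56.1 ± 7.98 CPM (SD, n = 4 each). Each of the 6 neighbouring pairs in that order overlapped. The 4 PWK/PhJ mice lay between 26.5 and 34.3 CPM and the 4 A/J mice between 49.5 and 67.7 CPM, with no overlap. The difference among the 7 strains passed (edgeR F = 18.6 with 6 degrees of freedom, adjusted p = 3.97e-09), as it did for 60.1% of all genes tested.

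Drd2+ neurons gave a like order for Cwc22, from PWK/PhJ at 27.2 ± 2.83 CPM and CAST/EiJ at 38.7 ± 7.31 to C57BL/6 at 54.7 ± 7.14 and A/J at 55.2 ± 2.47 CPM (SD, n = 4 each). NOD/ShiLtJ, NZO/HlLtJ and 129S1/SvImJ stood between, at 45.9 to 49.3 CPM, and neighbours overlapped in 6 of 6 pairs. The strains differed (edgeR F = 13.3, adjusted p = 1.41e-07), against 54.4% of all genes called. Without PWK/PhJ, an alternative chosen after it was seen to be lowest, the edgeR adjusted p for Cwc22 was 2.33e-05 in Drd1+ and 0.0113 in Drd2+ neurons.

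In oligodendrocytes Cwc22 was lowest in PWK/PhJ at 21.9 ± 5.73 CPM and highest in CAST/EiJ at 47.4 ± 10.7 CPM (SD, n = 4 each). CAST/EiJ, second lowest in both neuron clusters, was thus highest here, and whether the strain order differs between clusters was not tested. The 7 strains differed in oligodendrocytes (edgeR F = 3.52, adjusted p = 0.0126), where 33.9% of all genes were called. That call was lost without batch 1 (edgeR adjusted p = 0.411), without batch 2 (0.117) and without PWK/PhJ (0.553). In astrocytes PWK/PhJ was again lowest, at 31.4 ± 16.0 CPM, and 129S1/SvImJ highest, at 52.5 ± 9.06 CPM, and the difference did not pass (edgeR adjusted p = 0.781; 20.7% of all genes called). In macrophages, where 23.5% of all genes were called, Cwc22 was too rare outside WSB/EiJ for the test, with 24.1 to 66.4 CPM as strain means on 7 to 23 counts each. PWK/PhJ was lowest or tied in 12 of the 18 clusters, in 3 of them on 0 counts.

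Genes near Cwc22 were examined in the contrast of WSB/EiJ with the mean of the other strains, fitted in edgeR across all genes of each cluster. RefSeq lists 59 genes with an end within 2 Mb of Cwc22, 26 of them in the count files and 15 abundant enough to test in Drd1+ neurons. Of those 15, 1 was called, against 17.0% of all genes, and their median log2 difference was 0.15 beside 0.01 for all genes. The nearest tested gene, Zfp385b, a zinc finger gene at -63.5 kb, stood at 1145 ± 71.3 CPM in WSB/EiJ (SD, n = 4) and 1152 ± 162 CPM elsewhere (SD, n = 28), a log2 difference of 0.00 (edgeR adjusted p = 0.990). The called neighbour was Gm13944, at 46.9 ± 4.13 and 39.3 ± 9.35 CPM with overlapping groups (log2 0.27, SE 0.09, edgeR adjusted p = 0.0375). Its call was lost without batch 1, 3 or 4 (edgeR adjusted p = 0.0694 to 0.184), without the batch block (0.210) and in DESeq2 (adjusted p = 0.0570).

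In the other clusters, 2 of 14 tested neighbours were higher in WSB/EiJ in Drd2+ neurons (15.3% of all genes called), 2 of 10 were higher in oligodendrocytes (10.1%), 1 of 9 was lower in astrocytes (3.28%) and 1 of 3 was lower in macrophages (6.19%). Ccdc141, which encodes a coiled-coil protein, lies at -707 kb from Cwc22, towards lower coordinates, and gave the largest of these differences. It stood at 33.3 ± 8.54 CPM in WSB/EiJ astrocytes (27.7 to 45.9) and at 178 ± 40.9 CPM in the other mice (115 to 243), which did not overlap (log2 -2.37, SE 0.19, edgeR adjusted p = 3.50e-18). In Drd1+ neurons Ccdc141 was at 2.93 ± 1.40 and 3.47 ± 1.67 CPM and was not called (edgeR adjusted p = 0.988). The means put WSB/EiJ lower there, while the fitted log2 difference, which averages strains on the log scale, was 0.01, so no direction is given.

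Sestd1, a spectrin-repeat gene, was higher in WSB/EiJ oligodendrocytes, at 43.6 ± 10.8 against 22.6 ± 14.1 CPM (log2 1.16, edgeR adjusted p = 1.42e-06). Itga4, the integrin alpha 4 subunit, was higher there too, at 29.3 ± 3.68 against 13.5 ± 6.24 CPM (log2 1.24, edgeR adjusted p = 7.86e-05). The WSB/EiJ mice overlapped the range of the others for both genes. In Drd2+ neurons Ttn, the gene of the muscle protein titin, was called at 6.84 and 4.46 CPM, but not without batch 1 (edgeR adjusted p = 0.273). Sestd1 was called there at 49.0 and 40.6 CPM, but not without batch 1 or 3 (edgeR adjusted p = 0.252 and 0.183), without the batch block (0.112) or with no expression filter (0.0569). Agps, an enzyme of ether lipid synthesis, was called lower in macrophages at 234 and 388 CPM, but not without batch 1 or 4 (edgeR adjusted p = 0.0856 and 0.252). None of the neighbours tested came near the log2 differences of Cwc22, which averaged 5.07 to 5.64 over the 5 clusters.

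**Figure D5:**
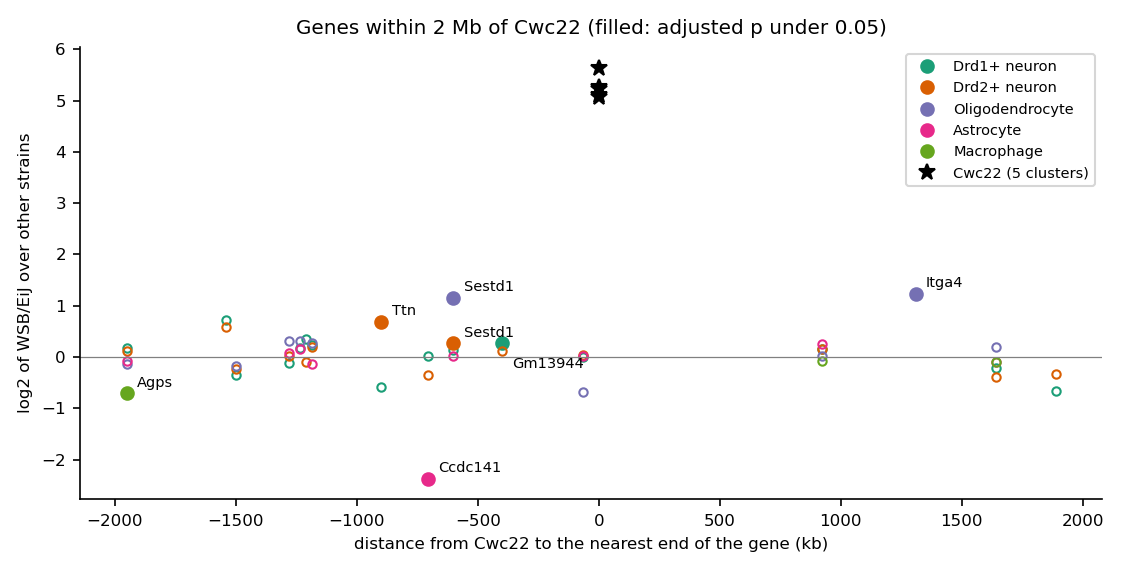
Log2 difference of WSB/EiJ from the other strains for genes within 2 Mb of Cwc22 in 5 clusters, against the distance from Cwc22 in kb (negative towards lower coordinates); filled points passed edgeR's test at an adjusted p under 0.05, and stars show Cwc22. Cwc22 lies at 5.07 to 5.64 and the lowest neighbour, Ccdc141 in astrocytes, at -2.37.

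The core partners of Cwc22 were not called in Drd1+ neurons, where the log2 difference of Cwc22 averaged 5.11. Eif4a3, the helicase that Cwc22 escorts, was at 9.09 ± 1.28 CPM in WSB/EiJ Drd1+ neurons and 9.48 ± 1.97 CPM elsewhere (log2 -0.03, SE 0.16, edgeR adjusted p = 0.937). Magoh had a log2 difference of -0.05 (SE 0.17, edgeR adjusted p = 0.893) and Rbm8a one of 0.11 (SE 0.13, edgeR adjusted p = 0.662). The sign turned for Eif4a3 without batch 2 or 3 and for Magoh without batch 3. None of these partners was called in the other clusters that tested them. Their log2 differences there ran from -0.68 (Eif4a3 in oligodendrocytes, edgeR adjusted p = 0.145) to 0.52 (Eif4a3 in astrocytes, edgeR adjusted p = 0.582). Of 20 genes of the exon junction complex and nonsense-mediated decay, 2 were called in Drd1+ neurons, both higher, a share of 10% beside 17.0% of all genes. The median log2 difference was 0.01, as for all genes. Smg9, a regulator of the decay kinase Smg1, was at 24.2 and 18.5 CPM (log2 0.47, SE 0.12, edgeR adjusted p = 0.00409). Its WSB/EiJ mice, at 22.6 to 26.4 CPM, lay inside the range of the others, 10.1 to 35.9 CPM. Upf3b, which links the complex to the decay factors, was at 67.1 and 56.1 CPM (log2 0.23, SE 0.08, edgeR adjusted p = 0.0424), a call that was lost without the batch block (edgeR adjusted p = 0.0724), which left 1 call. It was also lost without batch 1, 3 or 4 (0.0601 to 0.584), with no expression filter and in DESeq2.

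The counts of the next 3 lists stand beside the same 17.0% of all genes called in Drd1+ neurons. Among 33 other spliceosome genes tested there, 1 was called, lower. Sf3b1, a subunit of the U2 particle, stood at 153 and 174 CPM (log2 -0.17, edgeR adjusted p = 0.0454). Without the batch block no call was left in this list (edgeR adjusted p = 0.208 for Sf3b1). The call of Sf3b1 was also lost without batch 1, 2 or 4 (edgeR adjusted p = 0.0557 to 0.470), with no expression filter and in DESeq2. Of 9 other genes with a MIF4G domain, 1 was called lower, Eif4g3, a scaffold of translation initiation, at 136 and 160 CPM (log2 -0.21, edgeR adjusted p = 0.00396). That call was lost without batch 2 or 4 (edgeR adjusted p = 0.107 and 0.0641). Of 8 tested transcripts known as targets of nonsense-mediated decay, 2 were called, both lower. Gas5, a host gene of small nucleolar RNAs, fell by 0.49 on the log2 scale to 111 CPM from 164 CPM (edgeR adjusted p = 5.33e-07). Gadd45b, a stress-induced gene, was at 3.99 and 6.28 CPM (edgeR adjusted p = 0.0498), a call that did not hold without the batch block (edgeR adjusted p = 0.0998), without batch 1, 2 or 3 (0.116 to 0.273) or in DESeq2. The median log2 differences of these 3 lists were -0.01, -0.00 and -0.14.

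The same 4 lists, in the order exon junction complex and decay, spliceosome, MIF4G and decay targets, were counted in the other 4 clusters. In Drd2+ neurons 1 of 20, 1 of 33, 1 of 9 and 3 of 7 tested genes were called, beside 15.3% of all genes. In oligodendrocytes the calls were 0 of 17, 1 of 29, 1 of 9 and 0 of 5 (10.1% of all genes), and both lists with 0 had 1 gene at an unadjusted edgeR p under 0.05. In macrophages they were 0 of 8, 0 of 10, 1 of 5 and 0 of 2 (6.19% of all genes), with 0, 1 and 0 genes at an unadjusted edgeR p under 0.05 in the lists with 0 calls. In astrocytes edgeR called 0 of 14, 0 of 23, 0 of 9 and 0 of 4 (3.28% of all genes), with 0, 0, 1 and 0 genes at an unadjusted p under 0.05. Gas5 fell in Drd2+ neurons too, at 116 and 171 CPM (log2 -0.50, edgeR adjusted p = 1.67e-07). The WSB/EiJ mice overlapped the range of the others for Gas5 in both neuron clusters. Gas5 was not called in oligodendrocytes at 324 and 361 CPM (log2 -0.15, edgeR adjusted p = 0.261), in astrocytes at 308 and 316 CPM (log2 -0.04, edgeR adjusted p = 0.940) or in macrophages at 466 and 421 CPM (log2 0.14, edgeR adjusted p = 0.713). Smg9 was called higher in Drd2+ neurons, with overlapping groups (log2 0.47, edgeR adjusted p = 0.00722). Snhg12 and Snhg1, other hosts of small nucleolar RNAs in the list of decay targets, were higher in Drd2+ neurons (log2 0.34 and 0.36, edgeR adjusted p = 0.0243 and 0.0441). The remaining calls were Snrnp200 and Ctif in Drd2+ neurons, Srrm2 and Mif4gd in oligodendrocytes and Eif4g3 in macrophages. The genes in this paragraph were named after their values were seen.

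The genes whose level over the 32 mice in Drd1+ neurons was most like that of Cwc22 were sought among 12192 genes by the Pearson correlation of log2 CPM. Gm13727 came first (r = 0.968), then Gm42764 (0.966), Olr1 (0.871) and H2-T22 (0.867). For Gm13727 the nearest genes were Gm42764 (r = 0.970), Cwc22, Olr1 (0.891), Col15a1 (0.883) and Pds5b (0.847). These correlations rest on the split between the 4 WSB/EiJ mice and the other 28. Gm42764, a gene model with a systematic symbol, was at 6.26 ± 1.70 CPM in WSB/EiJ and at most 0.652 CPM elsewhere. Olr1, a scavenger receptor gene on chromosome 6, was at 11.8 ± 4.55 CPM against at most 1.35 CPM. Col15a1, a collagen gene on chromosome 4, was at 22.2 ± 6.13 CPM against at most 3.69 CPM. H2-T22 and Pds5b lie on chromosomes 17 and 5, so none of these 4 genes with a known position shared a chromosome with Cwc22.

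The deposited list of accessible regions gives positions called over all batches and strains together, so it shows no difference between strains. Of its 291715 regions, 20 lay in the body of Cwc22, which is 3.07 per 10 kb. The median over 9976 protein-coding genes of at least 20 kb was 1.67 per 10 kb, and 94.7% of these genes had fewer than Cwc22. Among 1804 genes of 50 to 80 kb, 93.9% had fewer. The list pools all strains, WSB/EiJ with its known high number of R2d copies among them. The part of copy number in this density was not tested. Zfp385b next to it had 2.68 regions per 10 kb, Ube2e3 had 2.64, Sestd1 had 2.09, Ccdc141 had 1.95 and Itga4 had 0.772. In steps of 50 kb out to 2 Mb on either side, the first step inside Cwc22 held 15 regions. Counting that step, 4 of the 80 steps held 15 or more. The rest of these lay 250 to 500 kb from the start site, past the other end of the gene. The median step held 6 and the highest 17. The step beyond the start site held 12 regions and the step past the other end 12, so the stretches next to the gene were dense as well. From 50 to 100 kb out, 6 regions lay beyond the start site, as many as in the median step, and 10 past the other end. Farther out the density was thus not alike on both sides.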

How the data were processed

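Per the labels and the file descriptions the authors deposited, each RNA matrix holds counts of UMIs, not normalized, for genes and barcodes, and a table of categories per barcode (unit other) gives strain calls from Demuxlet, quality filters, DoubletFinder calls and cluster names. The deposited list of accessible regions (unit other) holds positions only, pooled over batches, and its peak caller is not given in the sources used here. The submitters' processing notes name Cell Ranger ARC 2.0.0, bcl2fastq 2.20.0.422 and mm10 (GRCm38), with no role.

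For each mouse and cluster, the counts of annotated nuclei were summed to 1 library, used from 10 nuclei on. No further doublet caller was applied. edgeR 4.0.16 (R 4.3.3) was used with filterByExpr, TMM and a robust quasi-likelihood fit of strain and batch. P-values were adjusted by Benjamini-Hochberg over all genes of a cluster and called under 0.05. They measure the spread between mice. CPM in the 5 tested clusters are counts per TMM-scaled total of the genes that filterByExpr kept in that cluster. They are higher than by plain total where few genes were kept, as in macrophages. Where 18 clusters are compared, CPM are per plain total of all genes. The fits were tested on simulated data.

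The batch was a block because each batch pooled 1 mouse of every strain, per the labels. In Drd1+ neurons, deviations from strain means over 9040 genes correlated at a mean of 0.18 within a batch (112 pairs) and -0.06 between batches (336 pairs). Deviations from a strain mean cancel over its mice, so the value between batches follows largely from that within batches and is no separate observation.

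The members, the gene lists and the tests were chosen with earlier results of these data known. Besides the members, the text names called neighbours within 2 Mb, up to 4 called genes of each other list in Drd1+ neurons, Eif4a3, Magoh and Rbm8a, and the 5 genes most correlated with each member, of which 1 is not reported here. Alternatives were RLE scaling, DESeq2 1.42.0, no expression filter, no batch or mouse block, libraries of at least 30 nuclei, thinned counts, a plain total, a total without Cwc22, unannotated singlets added and each batch left out. Exact intervals were computed with scipy 1.17.1 in Python 3.11.15. Intervals and floors cover counting error only. The matrix of accessible regions by nuclei was not used here.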

Additional observations from a re-analysis of the deposited data

Results flagged for a closer look

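In the group of 4 129S1/SvImJ mice, the mouse of batch 2 stood apart in Cwc22 in Drd2+ neurons, at 58.5 CPM on 137 counts, while the other 3 lay between 45.3 and 47.0 CPM. In macrophages the 129S1/SvImJ mouse of batch 3 stood apart at 109 CPM, on 9 Cwc22 counts from 87 nuclei, while the other 3 lay between 25.7 and 32.8 CPM. These 2 were found among 45 groups of 4 mice, and chance alone flags about 1 group in 20.

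Cwc22 was also high in barcodes that the comparisons did not use. Singlets that both kinds of reads gave to WSB/EiJ but that the authors left out of the annotation, 1469 barcodes, held Cwc22 at 1405 CPM (exact 95% interval 1382 to 1429). The 8663 left-out singlets of other strains held 53.9 CPM. Barcodes called doublets and given to WSB/EiJ by both kinds of reads, 993 in number, held 884 CPM (865 to 904). Doublets given to WSB/EiJ by 1 kind of reads, 1042 in number, held 712 CPM (693 to 731). Doublets given to another strain by both, 12278 in number, held 129 CPM (127 to 131), and the annotated nuclei of other strains 43.6 CPM (42.7 to 44.5). Gm13727 was at 19.1 CPM in the left-out WSB/EiJ singlets and at 0.188 CPM in those of other strains.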

How the results depend on the processing

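Low counts of Gm13727 and of the small clusters give wide counting intervals. The batch-wise Cwc22 fold in Drd2+ neurons was 34.5 with plain totals in place of 33.5. Over all nuclei the fold was 36.0, and 33.5 with the left-out singlets added, without doublets. The share of WSB/EiJ Drd1+ nuclei with a Cwc22 UMI was 79.4% after thinning. Among the 7 other strains, the edgeR adjusted p for Cwc22 in oligodendrocytes ran from 0.00568 to 0.411 as each batch was left out and was 0.553 without PWK/PhJ, and the astrocyte calls ran from 1079 to 1594. The log2 interaction of Cwc22 in Drd2+ neurons, -0.03, ran from -0.052 to 0.0096 with a batch left out and was 0.12 with thinned libraries. Interaction calls without the replicate block were 9 in Drd2+ neurons and 154 in astrocytes, and 34 in Drd2+ neurons with no expression filter. With thinned libraries they were 0 in Drd2+ neurons, 50 in oligodendrocytes, 18 in astrocytes and 42 in macrophages, and with a batch left out 364 to 452, 157 to 228 and 89 to 145 in the last 3. In Drd1+ neurons, WSB/EiJ calls over all genes ran from 1458 to 1874 with a batch left out, lowest without batch 2. Calls among neighbours were 0 with DESeq2, 3 with no filter, 0 without the block and 0 to 1 with a batch left out. For the exon junction list they were 1, 1, 1 and 1 to 2, and for the spliceosome list 0, 0, 0 and 0 to 1. Decay targets had 1 with DESeq2, 1 without the block and 1 to 2 with a batch left out, and MIF4G genes 0 to 1 with a batch left out. In the main fit 2277 of 13431 genes were called. The calls over all genes with DESeq2, no filter or no block are not given beside these list counts. A change of a list count is therefore not read as a result about the list. With a batch left out, the log2 difference ran from -0.11 to 0.026 for Eif4a3 and from -0.11 to 0.022 for Magoh. Leaving out the replicate block changed no call of Cwc22 itself, with the pairing of mice by batch thus left out. Of 22 named genes checked, 12 kept side and sign in every alternative, and 2 reversed. The causes were not tested beyond the fewer samples or counts that these settings use.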
